A study of Mus musculus with 34 samples.

Results

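*Sox9*, *Sox5*, *Sox6*, *Col2a1*, *Col11a1*, *Col11a2*, *Col9a1*, *Col9a3*, *Acan* and *Hapln1* encode the SOX trio of chondrogenic transcription factors and the main structural components of the cartilage matrix. They were picked by symbol, and all 10 were found among the 22040 protein-coding genes of the mRNA-seq table. The study sequenced RNA from E11.5 mouse limb bud cells of wild type embryos (WT, 3 libraries) and of *Prrx1-Cre;Hnrnpk fl/fl* conditional knockout embryos (CKO, 3 libraries). *Hnrnpk* encodes a nucleic acid binding protein of the hnRNP family. *Prrx1-Cre* acts in limb bud mesenchyme and not in the surface ectoderm, blood or vessel cells that a whole limb bud also holds, and the study describes *Prrx1* expression in the hindlimb as incomplete. The sources used here do not say whether the WT embryos carried floxed alleles or Cre, how many embryos went into a library, or whether forelimbs and hindlimbs were mixed. The study calls the libraries biological replicates.

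In the limb bud, mesenchymal cells condense and turn on *Sox9*, the factor that starts cartilage differentiation, and SOX9 then acts together with SOX5 and SOX6 on enhancers of the matrix genes. Cartilage fibrils are built of type II collagen with type XI collagen inside them and type IX collagen on their surface. Aggrecan, the large proteoglycan that holds water in the tissue, is anchored to hyaluronan by a link protein.

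*Hnrnpk* itself had FPKM of 193, 195 and 185 in WT replicates 1, 2 and 3 and of 127, 142 and 135 in CKO replicates 1, 2 and 3. FPKM counts the fragments of a gene relative to its length and to the library size. The library sizes behind the FPKM, recovered from the values, ran from 18026062 to 23935514. For CKO replicates 2 and 3 they were below the reads recovered on the listed genes (19146571 against 21190300, and 23848048 against 24624444). Whether these sizes are plain read totals or were scaled between libraries is thus not settled. Replicate 1 of both groups stood apart from the other libraries along the first principal component, which held 52.6% of the variance. Haemoglobin genes took 13.7%, 19.5% and 20.6% of the summed FPKM in the WT libraries and 11.7%, 32.4% and 23.5% in the CKO libraries. The mesenchymal gene *Prrx1* was present in every library, at 51.6 to 62.0 FPKM. The 10 limb mesenchyme markers summed to 344 to 356 FPKM in WT and 292 to 338 FPKM in CKO, and 9 of them had a log2 fold change below 0. The part of this mesenchymal and blood makeup in the results that follow was not tested. In whole limb buds, fewer cells of a type and less RNA per cell cannot be told apart.

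In WT limb buds *Col2a1* had the highest level per length of the 10 genes, at 70.1 ± 21.3 FPKM (SD, n = 3). *Sox9* followed at 27.8 ± 1.22 and *Col9a1* at 25.1 ± 9.38, and these neighbours did not differ beyond their spread. *Col9a3* at 8.02 ± 5.08 and *Col11a1* at 7.75 ± 1.13 were also inseparable. *Col11a2* at 3.08 ± 1.63 overlapped both *Hapln1* at 3.96 ± 0.761 and *Sox5* at 2.84 ± 0.187, although every WT value of *Hapln1* was above every one of *Sox5*. After these came *Sox6* at 1.74 ± 0.316 and *Acan* at 0.415 ± 0.295 (SD, n = 3). By mean FPKM over the WT and CKO libraries together, *Col2a1* stood at percentile 97.3 of all genes in the table, *Sox9* at percentile 91.3 and *Acan* at percentile 39.9.

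**Figure D1:**
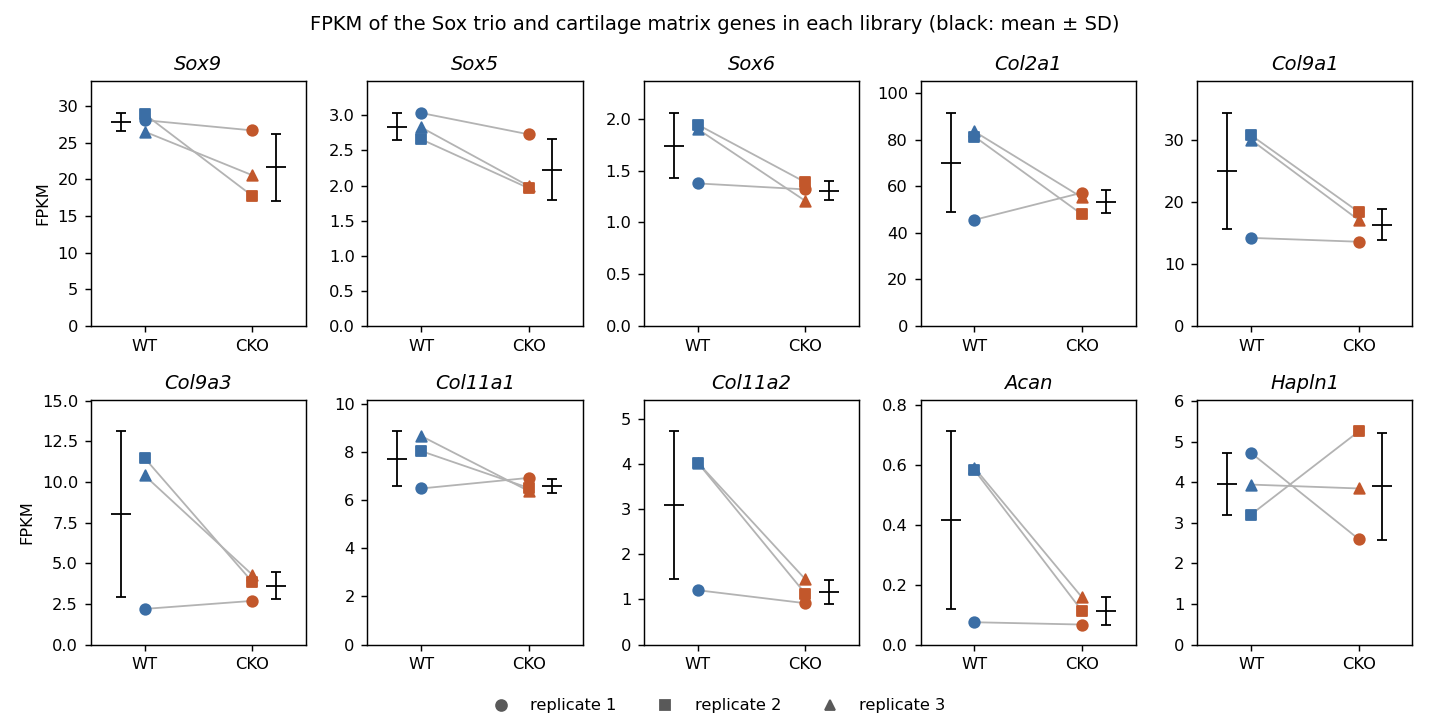
FPKM (linear axes starting at 0) of each of the 10 genes in the 3 WT (blue) and 3 CKO (orange) libraries, with marker shapes for the replicate number, grey lines joining libraries of the same number, and black bars for the mean ± SD. For *Col11a2*, WT replicates 2 and 3 stand at 4.02 and 4.03 and all other libraries between 0.914 and 1.44, and the same split is seen for *Col9a3* and *Acan*.

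CKO was compared with WT by limma on log2(FPKM + 0.1). The test covered 12305 genes, those whose mean over the libraries reached 0.5 FPKM, and *p* values were adjusted over all of them. Of the 10 genes, 9 passed this filter and *Acan* did not. None of the 9 had an adjusted *p* value under 0.05 in the comparison of all 6 libraries, where 0.00813% of all tested genes were called lower and 0.0569% higher. At an unadjusted *p* value under 0.05, *Sox9* and *Col11a2* passed, both lower in CKO, against 5.46% of all tested genes. All 9 log2 fold changes were below 0, as were 49.1% of all tested genes, and their median was -0.38 against 0.00 over all tested genes. None of the 10 genes had its 3 CKO values all below the 3 WT values, a separation seen in 8.86% of tested genes, or all above them, seen in 5.63%. The exact permutation test gave *p* values from 0.2 to 0.9 where the smallest it can give is 0.1. At low FPKM the added 0.1 pulls a log2 fold change towards 0. In the same fit *Hnrnpk*, the deleted gene, was not called either (log2 fold change -0.50, limma adjusted *p* = 0.334). Its 3 CKO values were all below the 3 WT values, so a lack of calls here does not show a lack of change.

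The trio itself differed in how steady it was. *Sox9* (ENSMUSG00000000567, chromosome 11 of GRCm38, 112782224 to 112787760) had 28.1, 28.9 and 26.5 FPKM in the WT libraries and 26.7, 17.8 and 20.6 FPKM in the CKO libraries, in the order of replicates 1, 2 and 3. The WT libraries lay within 1.09-fold of each other, while CKO replicate 1 stayed at the WT level and CKO replicates 2 and 3 lay below it. The log2 fold change was -0.38 (SE 0.16, 95% confidence interval -0.75 to -0.01, limma adjusted *p* = 0.585). *Sox5* (ENSMUSG00000041540, chromosome 6, 143828425 to 144781977), a SOX family partner that has no activation domain of its own, had 3.03, 2.66 and 2.83 FPKM in WT and 2.73, 1.96 and 1.99 FPKM in CKO. CKO replicate 1 again fell among the WT values, and the log2 fold change was -0.35 (SE 0.17, interval -0.74 to 0.04, limma adjusted *p* = 0.642). The annotated *Sox5* exons share 1330 bases with an antisense gene, *Sox5os1*, and whether the counting used the strand is not given in the sources used here.

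*Sox6* (ENSMUSG00000051910, chromosome 7, 115470872 to 116038796), the close relative of *Sox5*, had 1.38, 1.94 and 1.90 FPKM in WT and 1.32, 1.39 and 1.21 FPKM in CKO. Here it was WT replicate 1 that lay at the CKO level, so the groups overlapped through the other library numbered 1. The log2 fold change was -0.38 (SE 0.18, interval -0.80 to 0.05, limma adjusted *p* = 0.651). *Sox6* is also active in red blood cell precursors, and the summed FPKM of 12 erythroid markers ran from 38020 to 64260 in WT and from 31040 to 143400 in CKO. *Sox9* and *Sox5* kept nearly the same ratio in every library, from 9.25 to 10.9 in WT and from 9.05 to 10.3 in CKO. The ratio of *Sox9* to *Sox6* was 20.4 and 20.2 in the WT and CKO libraries numbered 1 and between 12.8 and 17.0 in the others.

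Promoter sequence was at hand for 7 of the 10 genes, in 13 windows of 300 bases that run from 250 bases before to 50 after an annotated start (RefSeq, GRCm38.p6). *Sox9*, *Col2a1* and *Col9a3* had no entry. The SOX-type words AACAAT and ACAAAG were searched on both strands. AACAAT occurred in 1 of the 13 windows and in 10.7% of 32851 promoters of the same length, and ACAAAG in 5 windows, all of *Sox6*, and in 18.7% of all promoters. The *Sox6* window that holds both words, 2 matches of each, is shown as an example of the motif in a gene of the trio itself, with the matches in capitals.

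Sox6 (chr7:115824661-115824960, minus strand): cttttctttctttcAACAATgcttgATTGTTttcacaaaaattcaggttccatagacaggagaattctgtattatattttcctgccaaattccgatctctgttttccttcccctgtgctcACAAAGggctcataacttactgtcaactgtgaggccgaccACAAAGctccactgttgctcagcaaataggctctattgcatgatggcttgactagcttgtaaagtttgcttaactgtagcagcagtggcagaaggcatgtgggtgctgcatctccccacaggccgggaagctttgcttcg

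Such matches describe the letters of a window and do not show binding. In this window none of the AACAAT matches overlaps an ACAAAG match, and the annotated start is 1 of several for *Sox6*.

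The log2 fold changes of the fibril collagens ran from -0.21 for *Col11a1* to -1.18 for *Col11a2*, the lowest among the 9 tested genes. None of them passed the adjustment in this comparison. *Col2a1* (ENSMUSG00000022483, chromosome 15, 97975602 to 98004695), which encodes the only chain of type II collagen, had 45.6, 81.3 and 83.5 FPKM in WT and 57.2, 47.9 and 55.2 FPKM in CKO. WT replicate 1 was the lowest of all 6 libraries, and the other WT libraries were the highest. The log2 fold change was -0.34 (SE 0.24, interval -0.90 to 0.21, limma adjusted *p* = 0.773). *Col11a1* (ENSMUSG00000027966, chromosome 3, 114030540 to 114220718), a chain of type XI collagen that is also made outside cartilage, had 6.50, 8.06 and 8.69 FPKM in WT and 6.94, 6.52 and 6.39 FPKM in CKO, with a log2 fold change of -0.21 (SE 0.14, interval -0.54 to 0.11, limma adjusted *p* = 0.750). Its CKO libraries lay within 1.09-fold of each other, and the difference from WT was within the spread between replicates.

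*Col11a2* (ENSMUSG00000024330, chromosome 17, 34039437 to 34066685) encodes another chain of type XI collagen that is more restricted to cartilage. It had 1.2, 4.02 and 4.03 FPKM in WT, from 148, 658 and 600 recovered reads, and 0.914, 1.12 and 1.44 FPKM in CKO, from 113, 147 and 235 reads. WT replicate 1 lay among the CKO libraries, and WT replicates 2 and 3 were above every CKO library. The log2 fold change of -1.18 (SE 0.44, interval -2.20 to -0.15) had an unadjusted *p* value of 0.0293 and did not pass the adjustment (limma adjusted *p* = 0.550). With the replicate number as a block in the model, so that libraries of the same number are set against each other, *Col11a2* fell by the same 1.18 on the log2 scale with a limma adjusted *p* = 0.0172. It was then the 1 gene called of the 9, where 1.68% of all tested genes were called lower and 1.13% higher. Without the filter on low values the blocked call was lost at the same log2 fold change (limma adjusted *p* = 0.173). The ratio of *Col2a1* to *Col11a2* was 37.9, 20.2 and 20.7 in WT and 62.6, 42.6 and 38.3 in CKO. Of 13 ratios between these genes it alone had no overlap between the groups, although WT replicate 1 and CKO replicate 3 were close (exact two-sided permutation *p* = 0.1, the smallest possible, and 0.867 adjusted over the 13 ratios). For *Col11a1* over *Col11a2* the ratio was 5.41, 2.0 and 2.16 in WT and 7.59, 5.80 and 4.43 in CKO.

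*Col9a1* (ENSMUSG00000026147, chromosome 1, 24177610 to 24252684), a chain of type IX collagen, had 14.3, 30.9 and 30.1 FPKM in WT and 13.6, 18.4 and 17.1 FPKM in CKO. Both libraries numbered 1 were the lowest of their group. The log2 fold change was -0.54 (SE 0.30, interval -1.22 to 0.15, limma adjusted *p* = 0.703). *Col9a3* (ENSMUSG00000027570, chromosome 2, 180597790 to 180622189), a further chain of the same collagen, had 2.19, 11.5 and 10.4 FPKM in WT and 2.68, 3.86 and 4.30 FPKM in CKO. WT replicate 1 was the lowest of all libraries, 5.24-fold under the highest WT library, and the log2 fold change was -0.84 (SE 0.58, interval -2.18 to 0.50, limma adjusted *p* = 0.769). Of the *Col9a3* exon bases, 234 are shared with *Tcfl5* on the opposite strand. With the replicate block *Col9a1* reached a limma adjusted *p* = 0.0567 and *Col9a3* 0.0988, and limma voom on the recovered reads with the same block called both (*Col9a1* -0.55, adjusted *p* = 0.0158; *Col9a3* -1.07, adjusted *p* = 0.00273) as well as *Col11a2* (-1.38, adjusted *p* = 0.000168), in a fit that called 3.34% of its genes lower and 1.80% higher.

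*Acan* (ENSMUSG00000030607, chromosome 7, 79053483 to 79115099), which encodes aggrecan, had 0.0743, 0.582 and 0.589 FPKM in WT and 0.0666, 0.112 and 0.157 FPKM in CKO. These values stood on 10, 104 and 96 reads in WT and on 9, 16 and 28 reads in CKO. The libraries numbered 1 were thus alike at about 10 reads, and both other WT libraries were above every CKO library. Its mean of 0.264 FPKM was under the filter, and without a filter the log2 fold change was -1.06 (SE 0.53, interval -2.29 to 0.18, limma adjusted *p* = 0.677; blocked, 0.262). *Hapln1* (ENSMUSG00000021613, chromosome 13, 89539796 to 89611652), the cartilage link protein, had 4.73, 3.21 and 3.95 FPKM in WT and 2.60, 5.26 and 3.85 FPKM in CKO. It did not share the pattern of the other matrix genes, since CKO replicate 2 was the highest of its 6 libraries and CKO replicate 1 the lowest. The log2 fold change was -0.06 (SE 0.26, interval -0.66 to 0.55, limma adjusted *p* = 0.971).

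**Figure D2:**
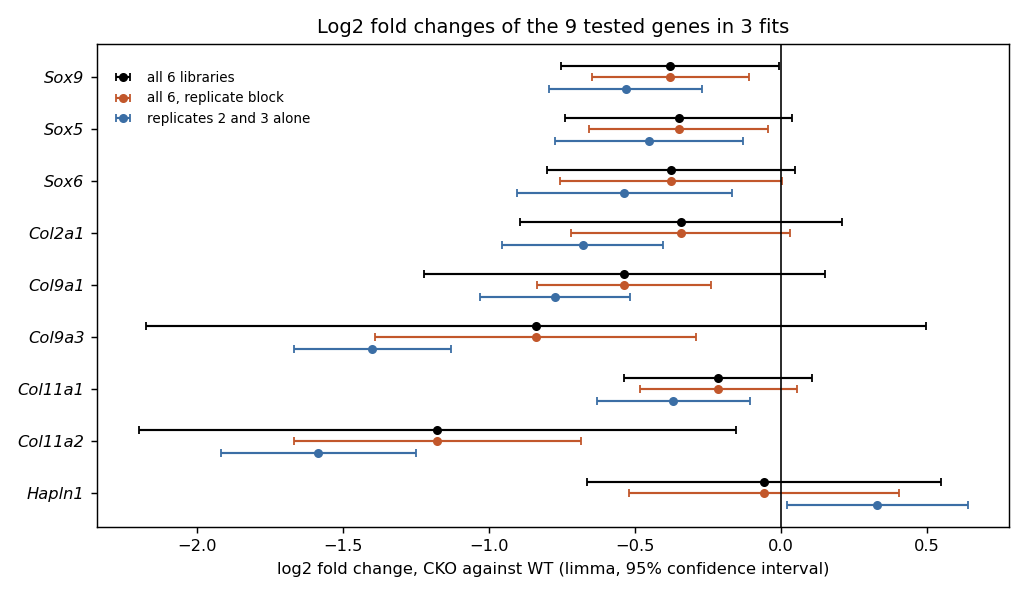
Log2 fold change of CKO against WT with its 95% confidence interval (bars) for the 9 tested genes in limma fits of all 6 libraries (black), of all 6 with the replicate number as a block (orange) and of replicates 2 and 3 alone (blue). The intervals of *Col9a3* and *Col11a2* are the widest with all libraries. Without the block those of *Sox9* and *Col11a2* exclude 0, and with it those of *Sox9*, *Sox5*, *Col9a1*, *Col9a3* and *Col11a2* do. *Hapln1* moves from -0.06 with all libraries to 0.33 in replicates 2 and 3 alone.

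Promoter windows of *Acan*, *Col11a2* and *Col9a1* are shown because these genes were low in the same libraries, and because hnRNPK is known to bind C-rich single strands. For *Col9a1* the window is the one at the start of the annotated gene. The windows of *Acan*, *Col11a2*, *Hapln1* and *Sox5* lie at annotated starts other than the gene starts given above. They need not be the main promoters of these genes. Runs of 4 or more C or 4 or more G are in capitals. *Acan* had 16 such runs, a number that 0.17% of all promoters reach, and *Col11a2* had 7, which 14.6% reach. *Col9a1* had 4 and 6 in its 2 windows, *Col11a1* 5 (window not shown) and *Hapln1* 3, against a median of 3 over all promoters. *Sox5* had 0 in its window, and the *Sox6* windows had 0 to 7. The *Acan* window was 74% G or C, that of *Col11a2* 59%, that of *Hapln1* 54.3% and the *Col9a1* window shown 47.3%. What part this base content had in the number of runs was not tested.

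Acan (chr7:79052976-79053275, plus strand): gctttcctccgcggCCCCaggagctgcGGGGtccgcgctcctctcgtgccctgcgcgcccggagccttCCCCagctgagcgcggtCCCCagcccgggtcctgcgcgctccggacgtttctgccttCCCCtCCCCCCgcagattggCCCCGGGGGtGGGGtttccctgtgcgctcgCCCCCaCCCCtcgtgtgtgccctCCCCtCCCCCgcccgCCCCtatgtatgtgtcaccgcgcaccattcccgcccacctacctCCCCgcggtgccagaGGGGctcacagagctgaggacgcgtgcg

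Col11a2 (chr17:34038888-34039187, plus strand): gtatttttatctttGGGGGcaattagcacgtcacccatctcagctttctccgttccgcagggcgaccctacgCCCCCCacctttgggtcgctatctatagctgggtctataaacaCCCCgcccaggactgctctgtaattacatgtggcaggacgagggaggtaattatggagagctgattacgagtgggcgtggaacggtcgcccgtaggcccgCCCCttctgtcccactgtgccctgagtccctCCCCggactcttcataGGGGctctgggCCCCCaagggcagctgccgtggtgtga

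Col9a1 (chr1:24177360-24177659, plus strand): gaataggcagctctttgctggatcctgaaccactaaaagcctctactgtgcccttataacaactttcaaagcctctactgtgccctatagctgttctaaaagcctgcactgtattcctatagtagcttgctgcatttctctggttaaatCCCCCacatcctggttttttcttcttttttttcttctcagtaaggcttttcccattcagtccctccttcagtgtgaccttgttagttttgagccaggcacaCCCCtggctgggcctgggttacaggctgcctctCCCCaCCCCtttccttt

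Hapln1 (chr13:89540386-89540685, plus strand): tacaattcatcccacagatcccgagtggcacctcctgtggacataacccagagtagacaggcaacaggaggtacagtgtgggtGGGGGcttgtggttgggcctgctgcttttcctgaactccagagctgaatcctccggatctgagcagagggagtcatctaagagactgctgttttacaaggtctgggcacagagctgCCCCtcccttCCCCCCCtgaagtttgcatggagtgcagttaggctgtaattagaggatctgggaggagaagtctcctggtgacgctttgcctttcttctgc

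The *Hapln1* window is shown beside the others as that of the matrix gene with a different pattern over the libraries. No binding was measured in the values used here, and the windows of 4 genes are a description.

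Taken by replicate number, the 10 genes gave a different picture in the libraries numbered 1 than in the others. Between the libraries numbered 1, *Sox9* differed by -0.07 on the log2 scale, *Sox5* by -0.15 and *Sox6* by -0.06, with CKO lower. The collagen genes *Col2a1*, *Col9a3* and *Col11a1* were higher in CKO there, by 0.33, 0.28 and 0.09. *Col9a1*, *Col11a2*, *Acan* and *Hapln1* were lower, by -0.06, -0.36, -0.07 and -0.84. That made 7 of 10 genes lower in CKO, where 52.9% of all tested genes were lower, and none was under 0.5 times WT, a fold that 0.910% of tested genes passed.

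Between the libraries numbered 2, *Sox9* differed by -0.70, *Sox5* by -0.42 and *Sox6* by -0.46. The matrix genes *Col2a1*, *Col9a1* and *Col11a1* differed by -0.76, -0.74 and -0.30. *Col9a3* at -1.55, *Col11a2* at -1.75 and *Acan* at -1.69 had the lowest differences, and *Hapln1* was higher in CKO by 0.70. In total 9 of 10 genes were lower, against 49.8% of all tested genes, and 3 were under 0.5 times WT, against 1.61%.

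Between the libraries numbered 3, all 10 genes were lower in CKO, against 49.7% of all tested genes. *Sox9* differed by -0.36, *Sox5* by -0.49, *Sox6* by -0.61, *Col2a1* by -0.60, *Col9a1* by -0.81 and *Col11a1* by -0.44. *Col9a3* at -1.26, *Col11a2* at -1.42 and *Acan* at -1.42 were again the lowest and the same 3 genes under 0.5 times WT, against 1.22% of tested genes, and *Hapln1* was at -0.03. The median difference of the 9 tested genes was -0.06, -0.70 and -0.60 for numbers 1, 2 and 3, against -0.01, 0.00 and 0.00 for all tested genes. *Col9a3*, *Col11a2* and *Acan* were under 0.5 times WT within both numbers 2 and 3, as were 0.585% of tested genes.

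**Figure D3:**
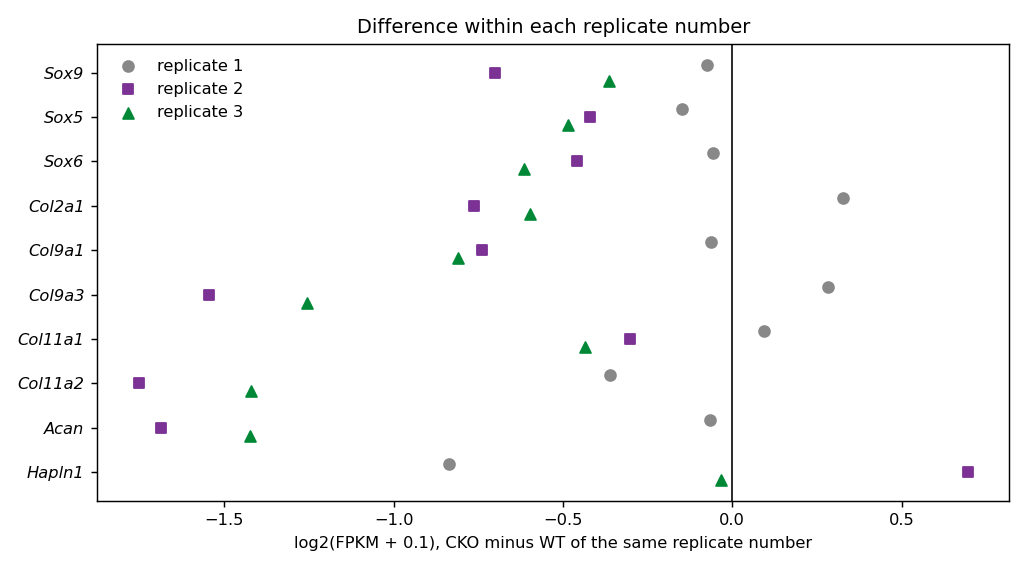
Difference of log2(FPKM + 0.1), CKO minus WT (x axis), for each gene (y axis) within replicate numbers 1 (grey circles), 2 (purple squares) and 3 (green triangles). The grey circles lie between -0.84 and 0.33, while *Col9a3*, *Col11a2* and *Acan* lie between -1.75 and -1.26 within numbers 2 and 3.

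Replicates 2 and 3 were therefore also fitted alone. In that fit 8 of the 9 tested genes fell at a limma adjusted *p* value under 0.05, against 8.00% of all tested genes called lower and 7.05% called higher. None of these calls held without the filter on low values, where limma called no gene of 17892 and 9 of the 10 genes had an unadjusted *p* value under 0.05. *Col11a2* fell by 1.59 on the log2 scale (interval -1.92 to -1.25, adjusted *p* = 1.68e-08) and *Col9a3* by 1.40 (interval -1.67 to -1.13, adjusted *p* = 2.11e-09), at ranks 15 and 22 from the lowest of 12305 genes. *Col9a1* fell by 0.77 (adjusted *p* = 4.81e-05) and *Col2a1* by 0.68 (adjusted *p* = 0.000627).

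The trio was called in the same fit, with *Sox9* falling by 0.53 (limma adjusted *p* = 0.00408), *Sox6* by 0.54 (0.0408) and *Sox5* by 0.45 (0.0493). *Col11a1* fell by 0.37 (limma adjusted *p* = 0.049), and *Hapln1* was at 0.33 (interval 0.02 to 0.64, limma adjusted *p* = 0.143). With the replicate block added to this fit, *Sox5* no longer passed (limma adjusted *p* = 0.0543) and the other 7 did. *Acan*, in a fit of the same libraries without a filter, was at -1.55 (limma adjusted *p* = 0.183), and 1898 genes had an unadjusted *p* value under 0.05 and were lower. Of the 10 genes, 9 had both CKO values below both WT values, a separation seen in 29.2% of tested genes. These fits rest on 2 libraries per group, selected because the libraries numbered 1 stand apart, and they borrow the spread from other genes.

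The spread between libraries differed among the 10 genes. Among WT libraries the highest *Acan* value was 7.93 times the lowest, followed by 5.24 times for *Col9a3*, 3.35 times for *Col11a2*, 2.17 times for *Col9a1* and 1.83 times for *Col2a1*. The SD of their log2 values lay at percentiles 99.4, 99.6, 98.8, 96.5 and 93.7 of all tested genes. *Sox9* and *Sox5* lay at percentiles 11.5 and 22.1, with 1.09 and 1.14 times between the highest and the lowest WT library. *Sox6*, *Col11a1* and *Hapln1* lay between, at percentiles 73.4, 63.1 and 75.4. Among the CKO libraries the order by SD of the log2 values was different, with *Hapln1* at the highest SD, percentile 90.9. By the highest over the lowest CKO value, *Acan* again came first at 2.36 times, followed by *Hapln1* at 2.02 times.

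Divided by *Sox9* of the same library, *Col2a1*, *Col9a1*, *Col9a3*, *Col11a2* and *Acan* were lowest in the library numbered 1 of each group. *Acan* over *Sox9* was 0.00265, 0.0201 and 0.0222 in WT and 0.00250, 0.00630 and 0.00764 in CKO. *Col9a3* over *Sox9* was 0.0780, 0.397 and 0.392 in WT and 0.101, 0.218 and 0.209 in CKO. *Col11a2* over *Sox9* was 0.0428, 0.139 and 0.152 in WT and 0.0343, 0.0633 and 0.0701 in CKO. Within numbers 2 and 3, each of these 3 ratios was lower in CKO than in WT, a difference with no test at 1 library per group and number. The ratio of *Col9a1* to *Sox9* differed less, at 0.508, 1.07 and 1.14 in WT and 0.511, 1.04 and 0.834 in CKO, and so did that of *Col2a1*, at 1.62, 2.81 and 3.15 in WT and 2.15, 2.70 and 2.68 in CKO. Over all 6 libraries the groups overlapped for each of these 5 ratios (exact permutation *p* from 0.3 to 1).

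**Figure D4:**
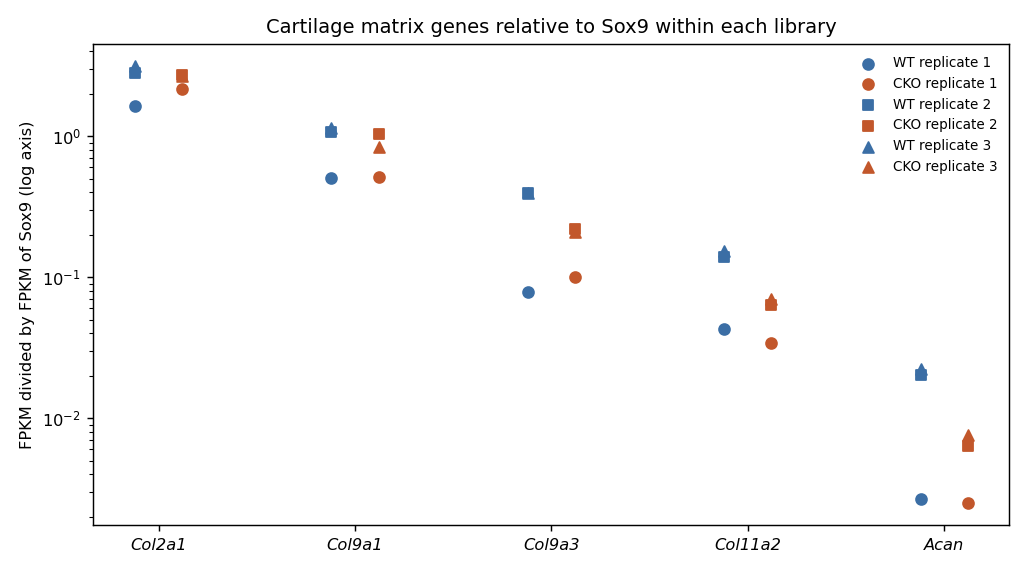
FPKM of 5 matrix genes divided by the FPKM of *Sox9* in the same library (log axis), for WT (blue) and CKO (orange), with marker shapes for the replicate number. Circles, the libraries numbered 1, are the lowest of their group for each gene, and for *Acan* they lie at 0.00265 in WT and 0.00250 in CKO.

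Markers of other tissues moved with the libraries as well. The 10 muscle markers summed to 14.9, 57.1 and 52.2 FPKM in WT and 36.6, 81.4 and 66.8 FPKM in CKO, and all 9 tested had a log2 fold change above 0. The 10 endothelial markers, all below 0, summed to 41.3, 30.6 and 32.7 FPKM in WT and 20.9, 31.9 and 30.6 FPKM in CKO. The 8 Schwann cell and neural crest markers summed to 5.72, 14.0 and 13.4 FPKM in WT and 11.2, 14.3 and 13.5 FPKM in CKO. For the notochord, another tissue that makes type II and type IX collagens, *Noto* was listed at 0 in every library, *Foxa2* reached at most 0.0529 FPKM, and the 8 markers of notochord and floor plate summed to 6.96 to 7.58 FPKM in WT and 6.65 to 8.40 FPKM in CKO. *Shh*, which limb buds also express, took 2.96 to 3.68 FPKM of that sum in WT and 2.37 to 3.96 FPKM in CKO. *T*, *Krt19* and *Nog* of that list also passed the filter on low values. *T* had 0.436 to 0.812 FPKM in WT and 0.489 to 0.859 in CKO. *Krt19* had 0.718 to 1.42 and 0.834 to 1.72 FPKM, and *Nog* 1.54 to 1.80 and 1.29 to 1.78 FPKM. The ectoderm markers summed to 45.7 to 86.1 FPKM in WT and 52.1 to 92.1 FPKM in CKO, and those of macrophages to 24.5 to 36 and 26.9 to 48.9 FPKM. With the replicate block 3 muscle markers were called higher, against 1.13% of all tested genes. Replicates 2 and 3 alone called higher 7 of 12 erythroid, 4 muscle, 2 ectoderm and 2 macrophage markers, against 7.05%. That fit called 1 limb mesenchyme marker lower, against 8.00%, and no endothelial, Schwann cell or notochord marker. What part these cells had in the values of the cartilage genes was not tested.

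The genes with values most like those of *Sox9* over the 6 libraries, among 7426 genes with an average of 5 FPKM or more, were *Sema3f*, *Cchcr1*, *Tmem132a*, *Gmppa* and *Fblim1*, each with a Pearson correlation of 0.99. *Sema3f*, a secreted guidance ligand, had 18.3, 18.2 and 18.1 FPKM in WT and 17.5, 11.4 and 13.5 FPKM in CKO. For *Col2a1* they were *Zfp580*, *Shisa2*, *Trp53i11*, *Tspyl1* and *Mterf4*, with correlations of 0.98 to 0.99. *Shisa2*, a modulator of Wnt and FGF receptors, had 9.35, 15.6 and 15.8 FPKM in WT and 10.8, 8.93 and 10 FPKM in CKO. Within the 10 genes, *Sox9* went most with *Sox5* (0.93) and *Col2a1* with *Col11a1* (0.95), *Acan* (0.93), *Col9a3* (0.92) and *Col11a2* (0.91), while *Sox9* and *Col2a1* had 0.48. These correlations describe 6 libraries in which those numbered 1 stand apart.

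The rest of the cartilage matrix was read from 19 further genes, of which 18 were matched and 7 tested. None passed the adjusted threshold in the comparison of all libraries or with the block, 6 had a log2 fold change below 0, and their median was -0.44. By number the median was 0.23, -0.51 and -0.28. *Col9a2*, the remaining chain of type IX collagen, had 3.58, 20.0 and 16.8 FPKM in WT and 4.23, 7.51 and 8.93 FPKM in CKO, the pattern of *Col9a3* (log2 fold change -0.69, SE 0.62, limma adjusted *p* = 0.837). *Matn4*, a matrilin, had 0.0965, 2.89 and 2.39 FPKM in WT and 0.395, 0.727 and 1.0 FPKM in CKO (-0.57, SE 0.96, limma adjusted *p* = 0.915). Not every matrix gene was lower, since *Col27a1*, another fibrillar collagen of cartilage, was at 5.78 ± 0.322 FPKM in WT and 6.55 ± 1.16 FPKM in CKO (SD, n = 3; limma adjusted *p* = 0.837). In replicates 2 and 3 alone 3 of the 7 were called lower, against 8.00% of all tested genes. They were *Col9a2* (-1.15), *Matn4* (-1.51) and *Fmod* (-1.09), the last named after its values were seen. Without the filter on low values that fit called no gene.

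Of 20 regulators of chondrogenesis and condensation genes, 15 were tested and 12 had a log2 fold change below 0, with a median of -0.31. With the replicate block 1 of them fell, *Pth1r*, the receptor of parathyroid hormone-related protein. It had 13.5, 16.1 and 14.0 FPKM in WT and 10.1, 7.84 and 8.72 FPKM in CKO, with no overlap between the groups (log2 fold change -0.71, SE 0.14, limma adjusted *p* = 0.209, and 0.0105 with the block). In replicates 2 and 3 alone 8.00% of all tested genes were called lower and 7.05% higher, and none without the filter on low values. Of the 15 regulators and condensation genes, 8 were called lower there with the filter and none higher. Among them, and named after its values were seen, was the joint and condensation gene *Gdf5*, with 1.08, 4.99 and 4.66 FPKM in WT and 1.41, 2.57 and 2.55 FPKM in CKO (-0.89, limma adjusted *p* = 4.16e-05).

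The genes that make and modify the matrix differed less. Of 16 genes for glycosaminoglycan synthesis and sulfation 15 were tested, 11 were below 0 with a median of -0.19, and none was called with or without the block. The chondroitin polymerising enzyme *Chsy1* (-0.19) and the sulfate donor synthase *Papss1* (-0.19) had the highest levels, and the lowest log2 fold changes were those of the sulfotransferase *Chst3* (-0.55) and of *Papss2* (-0.41), the 2 called lower in replicates 2 and 3 alone (-0.74 and -0.85). Of 17 collagen processing genes 15 were tested, 12 were below 0 with a median of -0.06, and *P3h1*, a collagen prolyl hydroxylase, fell with the block by 0.53 (limma adjusted *p* = 0.0442, and 0.426 without the block). Replicates 2 and 3 alone called 4 of these lower, *P3h1* and, named after their values were seen, *Plod1*, *Creb3l2* and *Bmp1*. That fit called 8.00% of all tested genes lower, and none without the filter on low values.

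**Figure D5:**
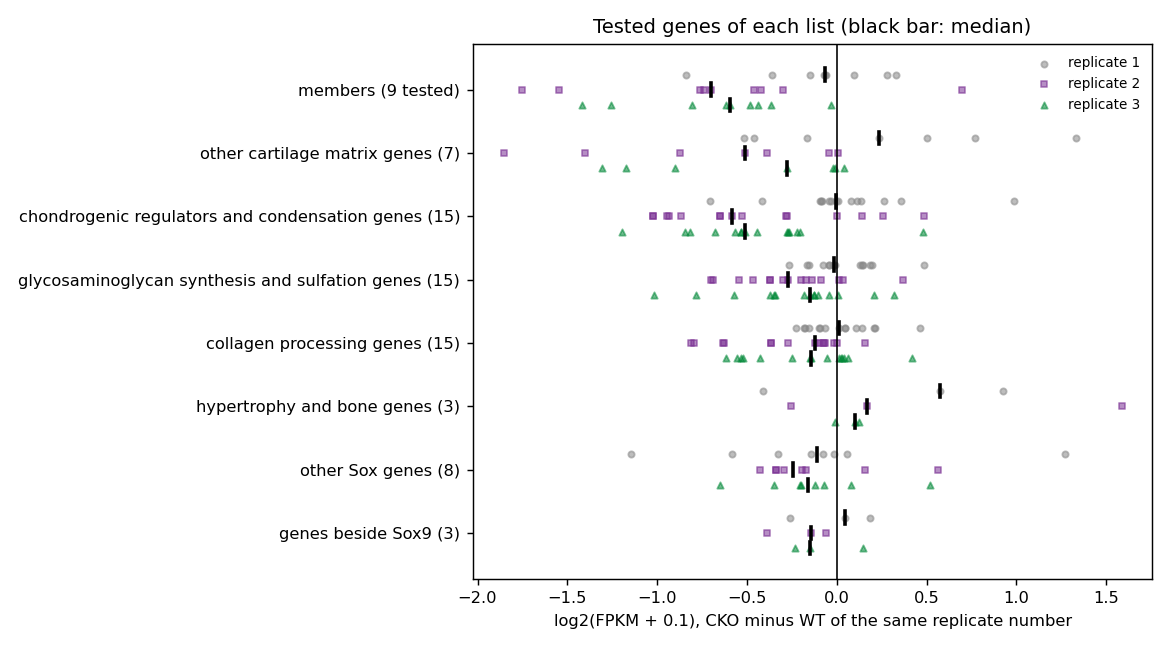
Difference of log2(FPKM + 0.1), CKO minus WT (x axis), of the tested genes of each list (y axis, number of genes in brackets) within replicate numbers 1 (grey), 2 (purple) and 3 (green), with black bars for the medians. The medians of the 9 tested genes of the SOX trio and cartilage matrix ("members") lie at -0.06, -0.70 and -0.60, and those of the collagen processing genes at 0.01, -0.12 and -0.14.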

How the data were processed

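The libraries were stranded mRNA libraries, and the authors' deposited values are FPKM of protein-coding genes with 1 column per library. The processing notes name mm10, HISAT2 2.1.0, featureCounts 1.6.3 and cutadapt 2.5 without tying them to an assay, and the annotation is not given in the sources used here. Of the 22040 identifiers, 99.5% were in GENCODE vM21, which gave positions and lengths. FPKM times length was a whole number of reads (within 0.1) in all libraries for 92.6% of genes. *Col2a1* and *Col11a2* came out whole with lengths of 6001 and 6831 bases, the shortest that fitted in a search. Their recovered reads, and the voom values taken from these, carry that assumption, while their FPKM do not. An FPKM of 0.5 on 2000 bases stood on 18.0 reads in the library with the smallest recovered size.

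Genes whose mean reached 0.5 FPKM were tested with limma 3.58.1 in R 4.3.3 (lmFit and eBayes with trend) on log2(FPKM + 0.1), with Benjamini-Hochberg adjustment over all 12305 and a threshold of 0.05. The fit, with and without the block, was run on simulated data with independent noise and no shift between replicate numbers. Such data cannot check how the block, or replicates 2 and 3 alone, deal with the libraries numbered 1. Replicate numbers were taken to pair the libraries, because deviations from the group means correlated across genes by 0.64, 0.44 and 0.27 for numbers 1, 2 and 3, all above 0.1. The crossed pairs were no lower, with 0.49 for WT replicate 2 and CKO replicate 3 and 0.31 for WT replicate 3 and CKO replicate 2, so the values set number 1 apart but do not separate numbers 2 and 3, and no source says what a number stands for. The alternatives were other pseudocounts, filters, scalings and variance models, and the replicate block. Others were limma voom on recovered reads and library sizes, each library left out, and replicates 2 and 3 alone. The last with the block, and the unfiltered fits with the block or with replicates 2 and 3, were added after seeing the data.

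The 10 genes, the lists and the tests were chosen with earlier results of these data known. Named besides them are *Hnrnpk*, the genes of each list called with or without the block or otherwise the 2 highest by mean FPKM and the 2 lowest by log2 fold change, and the 5 genes most like *Sox9* and *Col2a1*. Other assays of the series were not analysed here.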

Additional observations from a re-analysis of the deposited data

How the results depend on the processing

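The log2 fold changes of the tested genes other than *Hapln1* stayed below 0 under each alternative run, but their size moved with 1 library left out. It ran from -1.60 (without WT replicate 1) to -0.43 (without WT replicate 2) for *Col9a3*, from -0.63 to -0.19 (without WT replicates 1 and 3 in turn) for *Col2a1*, from -0.90 to -0.35 (WT replicates 1 and 2) for *Col9a1*, from -0.33 to -0.13 (WT replicates 1 and 3) for *Col11a1*, and from -0.54 to -0.25 (CKO replicates 1 and 2) for *Sox9*. *Hapln1* was at 0.33 in replicates 2 and 3 alone (limma adjusted *p* = 0.143; blocked, 0.119), and over the fits that leave out 1 library it ran from -0.30 to 0.20, above 0 without WT replicate 1 (0.07) and without CKO replicate 1 (0.20). The count of the 9 genes called was 0, against 1 with the replicate block, 3 with limma voom and the block, 8 in replicates 2 and 3 alone and 7 with the block added there, and it stayed at 0 with any 1 library left out. Without the filter on low values it was 0 both with the block and in replicates 2 and 3 alone (6 and 9 of 10 genes with an unadjusted limma *p* value under 0.05). The blocked limma model called *Col11a2* (-1.18). Voom with the block called *Col9a1* (-0.55), *Col9a3* (-1.07) and *Col11a2* (-1.38). In replicates 2 and 3 alone the calls were *Sox9* (-0.53), *Sox5* (-0.45), *Sox6* (-0.54), *Col2a1* (-0.68), *Col9a1* (-0.77), *Col9a3* (-1.40), *Col11a1* (-0.37) and *Col11a2* (-1.59), and the block kept them there except for *Sox5*. The median of the other cartilage matrix genes, -0.44, was -0.94 without WT replicate 1, -0.18 and -0.20 without WT replicates 2 and 3, and -0.22 without CKO replicate 1. Over all genes the count called was 8, and it was 14 with quantile normalization, 4 with haemoglobin genes left out of the scaling, 0 with an ordinary linear model (707 lower and 401 higher had an unadjusted *p* value under 0.05), 346 in the blocked model (10 without the filter), 567 with voom and the block, 1851 in replicates 2 and 3 alone (0 without the filter, where 1898 lower and 1556 higher had an unadjusted *p* value under 0.05), and 1 to 23 with 1 library left out, where the highest was without CKO replicate 1 and the lowest without replicate 3 of WT or replicate 2 or 3 of CKO. The cause of these differences was not tested. Scaling without haemoglobin genes moved the median of all genes to -0.10 and that of the 9 genes to -0.49. With 3 libraries per group, depth limits *Acan* most, at 9 to 104 reads.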

Other observations

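The other members of the SOX family were compared in the same way. Of 14 further *Sox* genes 8 were tested, 6 had a log2 fold change below 0 with a median of -0.20, and none was called by limma with or without the replicate block, while 1 had an unadjusted *p* value under 0.05. *Sox11* (70.4 ± 4.92 FPKM in WT and 67.0 ± 9.78 FPKM in CKO, SD, n = 3) and *Sox4* (62.5 ± 1.11 and 52.6 ± 6.72) had the highest levels. The vascular gene *Sox18* (-0.51) and *Sox7* (-0.26) had the lowest log2 fold changes. In replicates 2 and 3 alone *Sox18* was called lower (-0.47, limma adjusted *p* = 0.0419), as were 8.00% of all tested genes. The genes beside *Sox9* on its chromosome showed no call in any of these fits. *Map2k6* was at -0.18, *Kcnj2* at -0.08 and *Slc39a11* at -0.02, with limma adjusted *p* values from 0.756 to 0.985.

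Of 10 hypertrophy and bone genes only 3 passed the filter on low values. *Spp1*, which encodes osteopontin and is also made outside bone, had 2.05, 4.41 and 4.76 FPKM in WT and 3.99, 13.4 and 5.11 FPKM in CKO, higher in CKO within each replicate number by 0.93, 1.59 and 0.10 on the log2 scale. With the replicate block it rose by 0.87 (limma adjusted *p* = 0.0428, and 0.702 without it). CKO replicate 2, its highest library, also had the highest haemoglobin share (32.4%) and the highest summed macrophage markers (48.9 FPKM), and their part in the value was not tested.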
